A study of Mus musculus with 13 samples.

Results

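ESR1 peaks at the genes of the extracellular Wnt machinery were examined in primary skeletal muscle fibroblasts of Aromhum mice, which carry the human aromatase gene. The genes were taken by symbol from the protein-coding genes of GENCODE vM21 on mm10, as the numbered Wnt, Fzd, Sfrp and Dkk genes together with Lrp5, Lrp6 and Wif1. This gave 40 of 21938 protein-coding genes, namely 19 Wnt ligands, 10 Frizzled receptors, 2 co-receptors (Lrp5 and Lrp6), 5 secreted proteins that bind Wnt (Sfrp1, Sfrp2, Sfrp4, Sfrp5 and Wif1) and 4 Dickkopf genes. A peak belonged to a gene when its summit lay in the gene body or within 10 kb on either side. Windows of Wnt6 and Wnt10a, of Wnt3a and Wnt9a, and of Wnt1 and Wnt10b overlapped, so peaks in the overlap counted for both genes.

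ESR1 (ERα) was measured by ChIP-Seq, which sequences the DNA recovered with an antibody to the receptor. Fibroblasts came from the lower abdominal muscle (LAM) and were enriched by preplating, and all 12 libraries shared the Aromhum genotype. Cells received ethanol and DMSO as vehicle, 10 nM estradiol (E2), 10 nM E2 with 100 nM fulvestrant, or 100 nM fulvestrant alone, with 3 libraries per treatment and a labelled time of 1 hour. By the methods of the study, the mice were male and the cells were starved of serum overnight. Fulvestrant or DMSO was given 3 hours before E2 or ethanol, and cells were harvested 1 hour after that. Fulvestrant competes with E2 for the receptor and lowers the amount of receptor protein. An input sample was not analysed here, and neither the age of the mice nor whether replicates were separate animals or cultures is given in the sources used here. The p-values below therefore measure only the spread between these libraries, which may be technical.

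Wnt ligands are secreted lipid-modified glycoproteins that bind Frizzled receptors. In the canonical branch a Frizzled pairs with Lrp5 or Lrp6, and β-catenin then accumulates and acts with TCF/LEF factors in the nucleus, whereas ligands such as Wnt5a act largely through other branches. Secreted Frizzled-related proteins and Wif1 bind the ligands outside the cell, and the canonical Dickkopf proteins bind Lrp5 and Lrp6. Wnt signaling is a known driver of fibroblast activation in fibrosis.

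Lists ranged from 34293 to 104571 peaks, with 93 to 189 peaks per library at the 40 genes. Read depth is not part of a peak list. The E2 replicate 1 and fulvestrant replicate 2 libraries stood apart, with 104571 and 80754 peaks against at most 68971 in the other 10. In them 59.4% and 27.9% of all peaks lay mostly in soft-masked repeats, against at most 7.79% elsewhere. Markers of cell types were checked for a promoter peak in all 10 other libraries, which 33.2% of all protein-coding genes had. It was found at 6 of 7 fibroblast markers (Pdgfra, Pdgfrb, Col1a1, Col1a2, Col3a1 and Dcn, not Thy1). It was found at 0 of 5 myogenic, 0 of 3 endothelial, 0 of 3 immune and 0 of 3 epithelial markers. The immune marker Cd68 and the epithelial marker Krt8 had a promoter peak in some libraries but not in all 10. A promoter peak is not expression, so this check of the labelled cell type is indirect.

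Few of the peaks at these genes held an estrogen response element (ERE), the DNA element that ESR1 binds directly. The ERE was searched as the arms GGTCA and TGACC with 3 bases between them and at most 1 mismatch, on both strands, within 100 bp of the summit. It was found in 16 of 1573 peaks at the 40 genes (1.02%, Wilson 95% interval 0.627% to 1.65%, counting error only), in 1.92% of all peaks and in 0.67% of windows of the same length placed 2 kb away. The peaks are pooled over libraries that called the same sites, and 8 of the 16 belonged to 1 Dkk3 region. The interval treats them as independent and is too narrow, so it does not place the share below that of all peaks. None of the 1573 peaks held an ERE without a mismatch, and such an ERE was rare among all peaks too (2288 of 686823). An AP-1 site, TGACTCA or its reverse complement, lay within 100 bp of 3.75% of these summits against 4.44% of all summits. The TCF/LEF site ATCAAAG or its reverse complement lay near 2.42% against 2.53%, and both shares were thus close to those of all peaks. In the windows placed 2 kb away the AP-1 site was found in 3.44% and the TCF/LEF site in 3.64%.

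Peaks that overlapped between libraries by at least 1 bp were merged into regions. Of the 64 regions at these genes with a peak in 6 or more libraries, 5 held an ERE in a peak of any library (7.81%, against 6.07% of all regions in 6 or more libraries). The sequences around these 5 are shown in mm10 on the plus strand, 50 bases each side of a summit or wider where a match lay further out. The summit shown is that of a peak with the ERE, which was not always the strongest of its region. Capitals mark the ERE and, at Dkk3, the AP-1 site that overlaps it.
Dkk3, intron, chr7:112138410-112138510: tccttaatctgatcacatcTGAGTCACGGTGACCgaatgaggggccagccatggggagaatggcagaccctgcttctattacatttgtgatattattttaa
Lrp5, intron, chr19:3640631-3640731: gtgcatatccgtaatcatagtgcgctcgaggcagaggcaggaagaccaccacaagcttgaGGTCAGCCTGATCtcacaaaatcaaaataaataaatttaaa
Lrp6, downstream, chr6:134443177-134443277: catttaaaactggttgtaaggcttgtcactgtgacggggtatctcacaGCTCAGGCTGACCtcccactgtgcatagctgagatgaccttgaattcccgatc
Lrp6, intron, chr6:134499417-134499517: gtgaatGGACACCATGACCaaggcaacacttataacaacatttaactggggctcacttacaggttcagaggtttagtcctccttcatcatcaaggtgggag
Fzd7, coding exon, chr1:59484010-59484138: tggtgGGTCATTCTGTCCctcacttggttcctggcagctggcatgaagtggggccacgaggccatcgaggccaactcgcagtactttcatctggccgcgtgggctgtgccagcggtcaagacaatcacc

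The Dkk3 element differed from the consensus by G1A, counted from 1 at the left end of the first arm on the plus strand. Its first 5 bases are also the last 5 bases of a TGAGTCA AP-1 site, so both matches rest in part on the same letters. The ERE lay within 100 bp of the summit in 8 libraries. The other elements differed by C12T at Lrp5, G2C downstream of Lrp6, T3A in the Lrp6 intron and A11T in the Fzd7 coding exon, and each lay near the summit of only 1 or 2 libraries. At Lrp5, downstream of Lrp6 and at Fzd7 that summit was a weaker peak, ranked 18703, 36964 and 32690 in its library. In these regions the ERE lay near the strongest summit in 0 libraries. Downstream of Lrp6 the strongest summits had an AP-1 site nearby in 7 libraries and a TCF/LEF site in 3. These matches describe the sequence and do not show that the receptor was bound there.

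Between 20 and 38 of the 40 genes had a peak in a given library, and the number depended on the library more than on the treatment. In the vehicle libraries 22, 22 and 22 genes had a peak, and 38, 25 and 24 did after E2. With E2 plus fulvestrant the numbers were 20, 22 and 24, and with fulvestrant alone 21, 36 and 22. Both high values belonged to the libraries that stood apart, and without them the treatments overlapped between 20 and 25. A peak in all 12 libraries was found for 18 of 40 genes (45%), against 46.8% of all protein-coding genes.

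**Figure D1:**
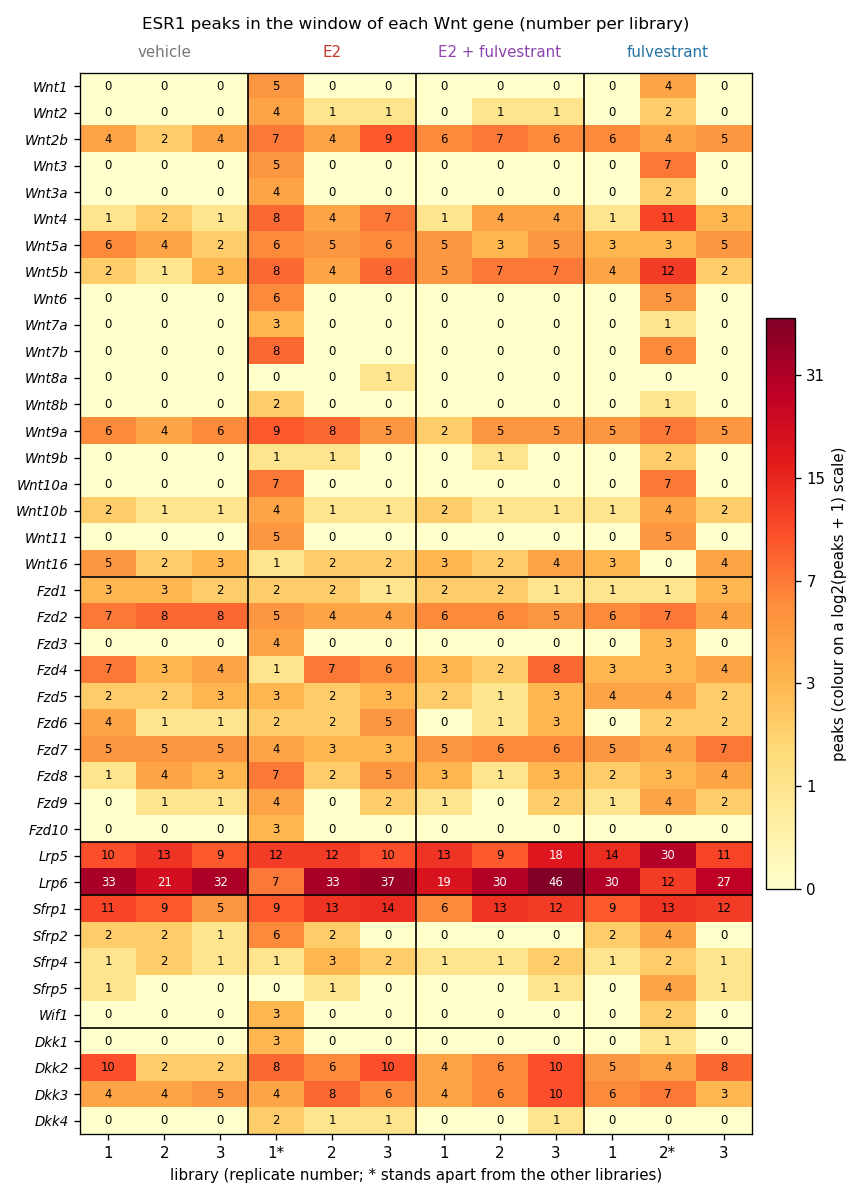
Number of ESR1 peaks in the window of each of the 40 genes (rows, ordered by role) in each of the 12 libraries (columns, by treatment and replicate number), with the colour on a log2(peaks + 1) scale. Lrp6 and Lrp5 hold the most peaks, and 13 genes are filled only in the 2 columns marked with an asterisk, E2 replicate 1 and fulvestrant replicate 2.

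Among the ligands, ESR1 peaks were recurrent at a minority of genes. Wnt2b, Wnt4, Wnt5a, Wnt5b, Wnt9a and Wnt10b had a peak in all 12 libraries. Another 9 of 19 ligands (Wnt1, Wnt3, Wnt3a, Wnt6, Wnt7a, Wnt7b, Wnt8b, Wnt10a and Wnt11) had peaks only in E2 replicate 1, in fulvestrant replicate 2 or in both. With Fzd3, Fzd10, Wif1 and Dkk1, these made 13 of 40 genes (32.5%), against 14.7% of all protein-coding genes. In E2 replicate 1 the 54 peaks at these 13 genes had a median rank of 65599 in the list and a best rank of 12533, and 18.5% of them were mostly repeat-masked. The lists of these libraries were the longest, and how far that accounts for these peaks was not tested.

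Wnt5a, a ligand of non-canonical signaling in fibroblasts, held 6, 4 and 2 peaks in the vehicle libraries and 6, 5 and 6 after E2. It held 5, 3 and 5 peaks with E2 plus fulvestrant and 3, 3 and 5 with fulvestrant alone. The treatments overlapped, and the libraries given E2 exceeded the others by 1.17 peaks on average (exact permutation p = 0.216, 6 against 6). Its strongest peak, 118 bp from an annotated start site, was called in all 12 libraries and ranked between 1334 and 5439, with 1 the strongest peak of a library. Ranks of the treatments overlapped there as well (p = 0.21, exact permutation test).

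Wnt2b, a canonical ligand, was the only ligand whose peaks differed between libraries with and without E2 at an unadjusted p under 0.05. It held 4, 2 and 4 peaks with vehicle, 7, 4 and 9 after E2, 6, 7 and 6 with E2 plus fulvestrant, and 6, 4 and 5 with fulvestrant alone. The 6 libraries given E2 averaged 2.33 peaks more than the 6 others (exact permutation p = 0.039, adjusted over all genes p = 1). Wnt2b was 1 of 40 members higher at this threshold, against 2.45% of all genes tested, and 0 members were lower, against 0.189%. Without the libraries that stood apart the Wnt2b difference was 2.2 (p = 0.111, exact permutation test), and the ligands Wnt2 (by 0.8 peaks) and Wnt5b (by 3.8 peaks) were then the 2 members that were higher, against 5.52% of all genes, with 0 lower against 0.171%. The 12-library call was also lost without vehicle replicate 2 (1.9 peaks) or E2 replicate 3 (1.83 peaks), and under 7 other settings of windows, thresholds, list length, scaling and repeat-masked peaks.

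The strongest Wnt2b peak ranked 5946, 5189 and 7468 with vehicle, 5705, 1097 and 6084 after E2, 3708, 929 and 794 with E2 plus fulvestrant, and 7973, 4767 and 5666 with fulvestrant alone. The libraries with E2 plus fulvestrant ranked ahead of all libraries without E2, and those with E2 alone overlapped with them. The log10 rank differed by -0.45 with E2 (exact permutation p = 0.0303, adjusted p = 0.304). Leaving out any of the 6 libraries without E2 raised this p to between 0.0563 and 0.0801 at differences between -0.47 and -0.42.

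Wnt5b, a close relative of Wnt5a, held 2, 1 and 3 peaks with vehicle and 8, 4 and 8 after E2. It held 5, 7 and 7 with E2 plus fulvestrant and 4, 12 and 2 with fulvestrant alone, so that the value of 12 came from a library that stood apart. One intronic Wnt5b region 224 bp from an annotated start site, with its summit at chr6:119467435, had a peak in 5 of 6 libraries given E2 and in 0 of 6 not given E2 (Fisher's exact p = 0.0152, adjusted p over all regions 1). It was absent from E2 replicate 1, and where called it ranked between 19448 and 38158, so it was a weak peak. Another region in the Wnt5b window, with its summit at chr6:119480017, lay 349 bp from a start site of Fbxl14 and 12806 bp from one of Wnt5b. It had a peak in 5 of 6 libraries given E2 and in 2 of 6 others, so the Wnt5b counts include peaks nearer to the start of another gene. Wnt4, a canonical and non-canonical ligand, held 1, 2 and 1 peaks with vehicle, 8, 4 and 7 after E2, 1, 4 and 4 with E2 plus fulvestrant, and 1, 11 and 3 with fulvestrant alone. Wnt2 held 0 peaks in every vehicle library and 4, 1 and 1 after E2, the 4 again in E2 replicate 1.

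Most Frizzled genes carried a recurrent promoter peak, and none of the 10 was among the genes with more peaks after E2 in every library. Fzd1, Fzd2, Fzd4, Fzd5, Fzd7 and Fzd8, 6 of the 10 receptors, had a peak within 3 kb of a start site in all 10 libraries other than those that stood apart, as did only Wnt5a and Wnt9a among the 19 ligands. Over the 40 genes 12 (30%) had such a promoter peak in all 10 libraries and 18 (45%) in none, against 33.2% and 40.2% of all protein-coding genes. Fzd3 and Fzd10 had none outside the libraries that stood apart.

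Fzd2, a receptor used by Wnt5a, held 7, 8 and 8 peaks with vehicle and 5, 4 and 4 after E2. With E2 plus fulvestrant it held 6, 6 and 5, and with fulvestrant alone 6, 7 and 4. Vehicle values lay above all values of both treatments with E2, and the 6 libraries given E2 held 1.67 peaks fewer on average than the others (exact permutation p = 0.0758). Fzd7 held 5 peaks in each vehicle library, 4, 3 and 3 after E2, 5, 6 and 6 with E2 plus fulvestrant, and 5, 4 and 7 with fulvestrant alone, so E2 alone lay below both vehicle and E2 plus fulvestrant. With peaks counted per 10000 peaks of the list or from the strongest 30000 peaks alone, 5 members rather than 2 were lower after E2 than with vehicle, against 13.7% and 4.71% of all genes, and Fzd2 and Fzd7 were among them. With −log10 q of at least 10, with windows of 50 kb or with gene bodies alone, 0 members were lower, so both calls were lost.

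The strongest peak of Fzd7 lay at higher rank numbers in the libraries given E2, whose lists were on the whole longer. It ranked 1953, 6428 and 2053 with vehicle, 10293, 6489 and 4452 after E2, 5675, 9045 and 5934 with E2 plus fulvestrant, and 4118, 3482 and 3969 with fulvestrant alone. On the log10 scale the rank number was higher by 0.30 in the libraries given E2 (exact permutation p = 0.0152, adjusted p = 0.261), and by 0.26 without the libraries that stood apart (p = 0.0556, exact permutation test). As a percentile of the list length the difference was 2.86 points and the call was lost (p = 0.318, exact permutation test). Fzd4, a receptor also used by Norrin, had a strong promoter peak in every library, with ranks between 500 and 5392 and no separation between treatments.

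The co-receptor genes had the most peaks, in large windows. Per 100 kb of window, averaged over the libraries, Lrp6 held 19.4 peaks and Lrp5 11, against 24.7 at Fzd2 and 19.7 at Fzd7. Lrp6 held 33, 21 and 32 peaks with vehicle, 7, 33 and 37 after E2, 19, 30 and 46 with E2 plus fulvestrant, and 30, 12 and 27 with fulvestrant alone, in a window of 140 kb. The 2 lowest values were those of E2 replicate 1 and fulvestrant replicate 2, which were high at other genes. Its promoter peak, 230 bp upstream of the start, was called in all 12 libraries with ranks between 956 and 3724. Lrp5 held between 9 and 18 peaks in 11 libraries and 30 in fulvestrant replicate 2, and its leading intronic region, 44124 bp from the nearest annotated start of Lrp5, was called in all 12 libraries and ranked between 451 and 3976 in all but E2 replicate 1, where it ranked 92117. Differences between libraries with and without E2 were within the spread at both genes (exact permutation p = 0.697 for Lrp6 and 0.725 for Lrp5).

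Of the secreted Wnt-binding inhibitors, Sfrp1 carried the strongest peaks, and these were stronger with E2. The strongest Sfrp1 peak ranked 6032, 9587 and 5468 with vehicle and 10228, 806 and 1218 after E2. It ranked 5147, 599 and 1430 with E2 plus fulvestrant and 4876, 9240 and 5589 with fulvestrant alone. Apart from E2 replicate 1 and E2 plus fulvestrant replicate 1, the libraries given E2 ranked far ahead of all 6 without E2. The log10 rank was lower, that is stronger, by 0.54 with E2 (difference -0.54, exact permutation p = 0.0411, adjusted p = 0.332), and by 0.66 without the libraries that stood apart (difference -0.66, exact permutation p = 0.0159). Leaving out E2 replicate 2 or 3, or E2 plus fulvestrant replicate 2 or 3, gave differences between -0.52 and -0.44 with an exact permutation p of 0.0628 each, and ranking by fold enrichment gave -0.30 (exact permutation p = 0.121). The number of Sfrp1 peaks did not separate (p = 0.502, exact permutation test), with 11, 9 and 5 with vehicle, 9, 13 and 14 after E2, 6, 13 and 12 with E2 plus fulvestrant, and 9, 13 and 12 with fulvestrant alone.

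Sfrp2 had 2, 2 and 1 peaks with vehicle, 6, 2 and 0 after E2, 0 in all 3 libraries with E2 plus fulvestrant, and 2, 4 and 0 with fulvestrant alone. A region at the edge of the window, given below, had a peak in all 3 libraries with E2 plus fulvestrant. Their summits lay outside the window, so the counts and gene ranks of Sfrp2, and its calls as fewer or weaker, leave these peaks out. Sfrp4 had 1 to 3 peaks in every library, with its recurrent region nearer to a start site of Epdr1 than to its own. Sfrp5 had 8 peaks over all 12 libraries, 4 of them in fulvestrant replicate 2, and Wif1 had 5, all in the libraries that stood apart.

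Dkk3, a divergent Dickkopf family member whose action on Wnt signaling is less settled than that of Dkk1, carried the strongest peak of the whole set. Its leading region lay in an intron, 20597 bp from the start of the gene, with the ERE printed above. It ranked 543, 2238 and 3938 with vehicle. After E2 it had no peak in replicate 1 and ranked 157 and 278 in the others, with E2 plus fulvestrant it ranked 212, 150 and 248, and with fulvestrant alone 1644, 17702 and 2642. Every library given E2 other than E2 replicate 1 thus had this peak among its 278 strongest, and all libraries without E2 had it at rank 543 or beyond.

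The enrichment over local background in the same region, as deposited, was 6.27, 3.93 and 3.34-fold with vehicle and 14.5 and 11.2-fold in the E2 libraries with a peak. It was 8.07, 12.5 and 11.2-fold with E2 plus fulvestrant and 5.1, 2.71 and 3.9-fold with fulvestrant alone. The enrichments with and without E2 did not overlap among libraries with a peak, and E2 plus fulvestrant lay between 8.07 and 12.5-fold, near E2 alone. Over all 12 libraries the log10 rank of the strongest Dkk3 peak differed by -0.72 (exact permutation p = 0.143), since E2 replicate 1 had only weaker peaks at the gene, the best at rank 51014. With E2 replicate 1 alone left out the difference was -1.12 (exact permutation p = 0.00433). Without the libraries that stood apart the difference was -0.96 (p = 0.00794, the smallest that 5 against 5 allows in an exact permutation test, adjusted p = 0.162).

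Dkk2 held between 2 and 10 peaks, with overlap of all treatments, and Dkk4 held 0 peaks with vehicle, 2, 1 and 1 after E2, 0, 0 and 1 with E2 plus fulvestrant and 0 with fulvestrant alone. The Dkk4 peaks ranked between 21314 and 41785. Dkk1, the canonical Lrp5/6 antagonist, had peaks only in the libraries that stood apart.

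**Figure D2:**
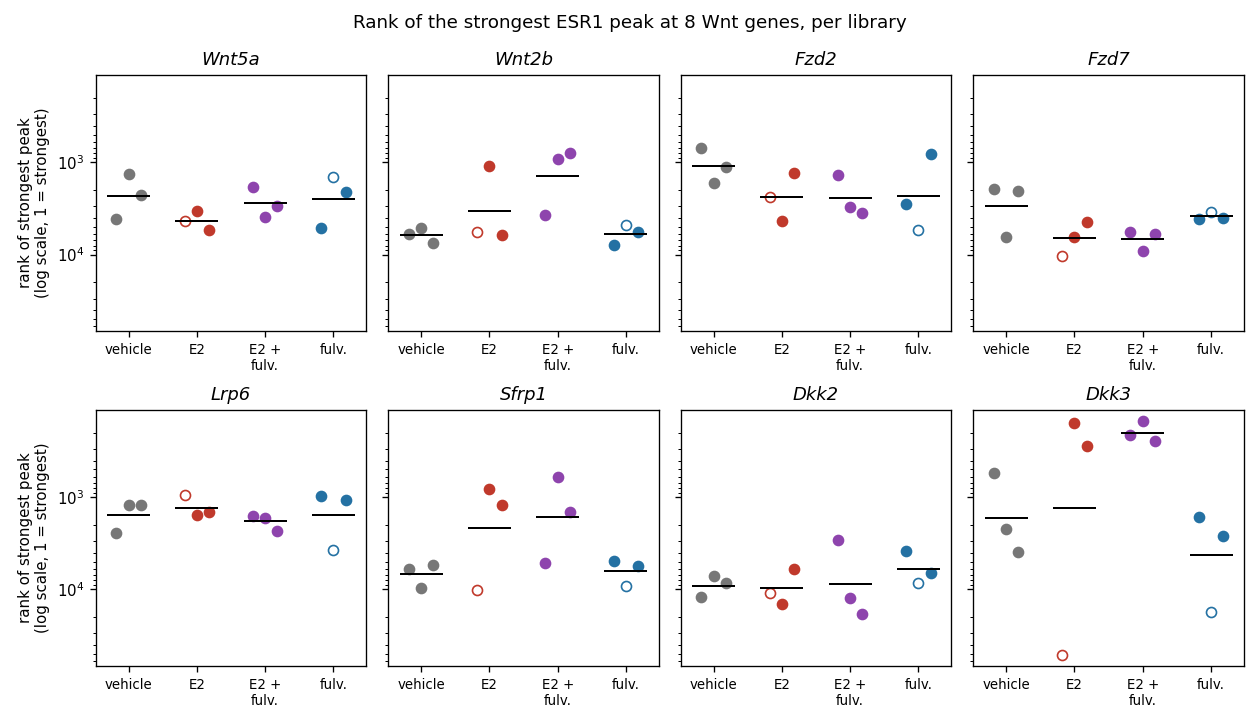
Rank of the strongest ESR1 peak in the window of 8 genes, with 1 point per library by treatment on an inverted log axis, so that strong peaks are at the top. Open points are E2 replicate 1 and fulvestrant replicate 2, and bars are means on the log scale. Dkk3 and Sfrp1 are higher in most libraries with E2 and with E2 plus fulvestrant. Wnt2b is higher with E2 plus fulvestrant and in 1 of 3 libraries with E2 alone. Dkk2 and Wnt5a overlap between treatments. Lrp6 with E2 alone lies ahead of E2 plus fulvestrant in all libraries, and it overlaps with vehicle and with fulvestrant alone.

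The treatments were compared pair by pair over the 40 genes, counting a gene when the 3 libraries of 1 treatment all lay above or all below the 3 of the other (3 against 3 cannot go below p = 0.1 in an exact permutation test). For E2 against vehicle, 4 members (Wnt2, Wnt4, Wnt5b and Dkk4) had more peaks after E2, against 8.99% of all genes tested, and 2 (Fzd2 and Fzd7) had fewer, against 0.485%. For E2 against E2 plus fulvestrant, the contrast at the centre of the study, 0 members had more peaks after E2 (4.19% of all genes) and 1, Fzd7, had fewer (0.676%). For E2 plus fulvestrant against vehicle, 2 of 26 members tested had more peaks (Wnt2b and Wnt5b, against 3.95%) and 2 fewer (Fzd2 and Sfrp2, against 0.548%). For fulvestrant alone against vehicle 0 members had more (3.22%) and 0 fewer peaks (0.431%). In none of these comparisons did any gene of the genome reach an adjusted p under 0.05 in the exact permutation test, which 3 against 3 does not allow, and the comparisons share libraries.

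By the rank of the strongest peak, 5 members (Wnt7a, Wnt8a, Wnt8b, Fzd8 and Sfrp5) were weaker after E2 than with vehicle, against 15.3% of all genes, and 0 were stronger, against 3.3%. Where a library had no peak the length of its list took the place of a rank, so that for Wnt7a, Wnt8a, Wnt8b and Sfrp5 the weaker call came from the longer lists after E2. Between E2 and E2 plus fulvestrant Fzd8 was weaker after E2 (1 member, against 3.28% of all genes) and Lrp6 stronger (1 member, against 4.94%). Ranked as a percentile of each list's length, the E2 and vehicle comparison turned over, with 20 members stronger after E2, against 34.6% of all genes, and 0 weaker, against 1.21%. Neither count is therefore read as a change at these genes. With all libraries given E2 against all others, 2 members were stronger (Wnt2b and Sfrp1, against 2.66%) and 2 weaker (Fzd7 and Sfrp5, against 11.4%). Without the libraries that stood apart, 3 were stronger (Wnt2b, Sfrp1 and Dkk3, against 4.79%) and 3 weaker (Fzd5, Sfrp2 and Sfrp5, against 13.7%). Sfrp2 and Sfrp5 each had no peak in their window in 4 of the 6 libraries given E2, where the list length stood in for a rank. As percentiles over 12 libraries, 0 members were weaker and 3 stronger (Wnt2b, Sfrp1 and Dkk4, against 4.78%).

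The effect of E2 with fulvestrant present was compared with its effect without fulvestrant as a difference of differences in peaks per gene. At an unadjusted p under 0.05, 0 members differed, against 3.46% of all genes, and 0 genes had an adjusted p under 0.05 (permutation test). With 3 libraries a treatment, this does not show that the effects were alike.

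The merged regions placed these differences at single sites. The 40 windows held 420 regions, of which 244 (58.1%) were seen in 1 library and 24 (5.71%) in all 12, against 64.2% and 3.42% of all 228284 regions. Of the 24 regions in all libraries, 13 had their summit within 3 kb of a start site of the gene. Of the 64 regions in 6 or more libraries, 23 lay in introns, 19 downstream, 10 upstream, 7 in a UTR and 5 in a coding exon of the member gene. By presence, 1 region was more frequent with E2 (the Wnt5b region above, against 0.159% of all regions) and 0 less frequent, against 0.00219%. The 7 regions next in order, at Sfrp4, Lrp6, Wnt5b, Dkk3, Sfrp2 and Wnt2, had a Fisher's exact p between 0.182 and 0.242.

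**Figure D3:**
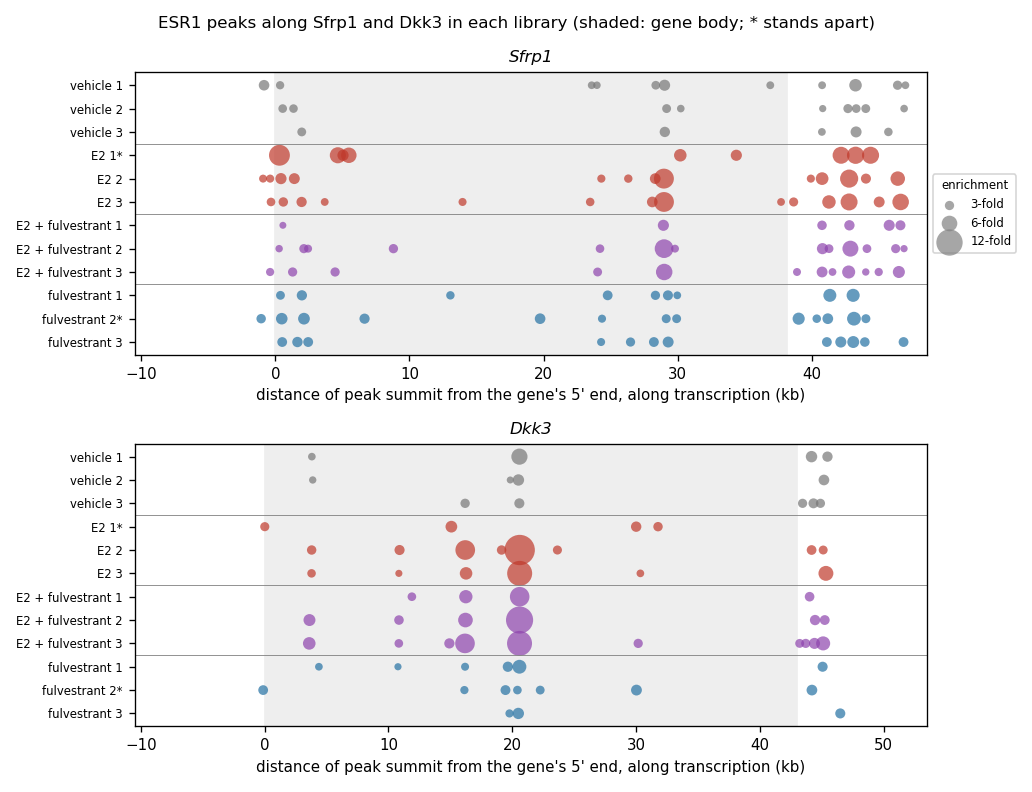
Position of every ESR1 peak along Sfrp1 and Dkk3, as kb from the 5' end of the gene in the direction of transcription, with 1 row per library and the point area growing with fold enrichment. The gene body is shaded, and rows marked with an asterisk stand apart. The Dkk3 peak near 20.6 kb and the Sfrp1 peak near 29.0 kb are larger in most rows with E2, with and without fulvestrant.

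By rank, 2 of the 64 recurrent regions were stronger with E2 over all 12 libraries (against 2.38% of the 29321 regions tested) and 1 was weaker (against 5.9%). Without the libraries that stood apart, 8 were stronger (against 11.6%) and 2 weaker (against 6.56%). The share of stronger regions at the Wnt genes was close to that of all regions, and the smallest adjusted p over all regions was 0.444 with 12 and 0.125 with 10 libraries (exact permutation test), so 0 regions passed an adjusted threshold. The stronger 8 lay at Dkk3, Sfrp1, Wnt2b, with 2 regions each, and at Sfrp2 and Fzd6, and the weaker 2 were promoter regions of Fzd5 and Sfrp2.

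Of the regions away from EREs that ranked stronger with E2 without the libraries that stood apart, 3 are shown, at Sfrp1, Dkk3 and Sfrp2. The Sfrp1 region held the strongest peak of its gene in 5 of 6 libraries given E2, the Dkk3 region came second to the element printed above, and the Sfrp2 region lies at the edge of the window. Capitals mark an AP-1 site, the only match among the searched motifs in the printed bases, and the sequences are mm10 plus strand around the summit. At the Sfrp1 region a TCF/LEF site outside the printed bases lay within 100 bp of the summit in 3 libraries.
Sfrp1, intron, chr8:23440445-23440545: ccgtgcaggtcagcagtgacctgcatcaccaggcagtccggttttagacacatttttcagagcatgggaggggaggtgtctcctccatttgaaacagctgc
Dkk3, intron, second region, chr7:112142819-112142919: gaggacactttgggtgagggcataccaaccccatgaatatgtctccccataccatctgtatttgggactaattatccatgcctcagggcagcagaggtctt
Sfrp2, upstream, chr3:83755769-83755869: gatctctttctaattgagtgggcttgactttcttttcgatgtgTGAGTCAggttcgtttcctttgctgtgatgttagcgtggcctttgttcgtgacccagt

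The Sfrp1 region, 28993 bp into the gene, was called in all 12 libraries. It ranked 6854, 9855 and 5995 with vehicle, 41296, 806 and 1218 after E2, 5147, 599 and 1430 with E2 plus fulvestrant, and 10045, 25319 and 5589 with fulvestrant alone. Apart from E2 replicate 1, all libraries given E2 ranked ahead of all others, with a log10 difference of -0.74 without the libraries that stood apart (p = 0.00794, exact permutation test) and -0.58 with them (p = 0.0649). Its enrichment was 3.81, 2.83 and 3.46-fold with vehicle and 4.46, 8.28 and 8.22-fold after E2. It was 3.81, 7.62 and 6.42-fold with E2 plus fulvestrant and 3.31, 2.86 and 3.73-fold with fulvestrant alone. E2 plus fulvestrant replicate 1 thus equalled vehicle replicate 1, and the 4.46-fold of E2 replicate 1 was near the 4.15-fold median of its list.

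The second Dkk3 region, 16188 bp from the start, had a peak in 5 of 6 libraries given E2 and in 3 of 6 others. It ranked 3152 and 14315 in the E2 libraries with a peak and 4824, 5505 and 2105 with E2 plus fulvestrant, and where called without E2 it ranked 17135, 34432 and 67554. The Sfrp2 region, 10502 bp upstream of the start at its strongest summit and thus just outside the window there, held the AP-1 site near the summit in 6 libraries. It ranked 1114 and 5876 in the E2 libraries with a peak, 10092, 4016 and 4827 with E2 plus fulvestrant, 7685, 23257 and 9377 with vehicle, and 10418 and 26061 in the fulvestrant libraries with a peak, so the libraries with and without E2 overlapped. The Fzd6 region lay downstream, with its strongest summit just outside the window and nearest to a start site of Cthrc1. It ranked 1623 and 920 in the E2 libraries with a peak and 7294, 1553 and 1467 with E2 plus fulvestrant. It ranked 36498, 25354 and 2086 with vehicle and 19570, 38572 and 3494 with fulvestrant alone, so the libraries with and without E2 overlapped there too.

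**Figure D4:**
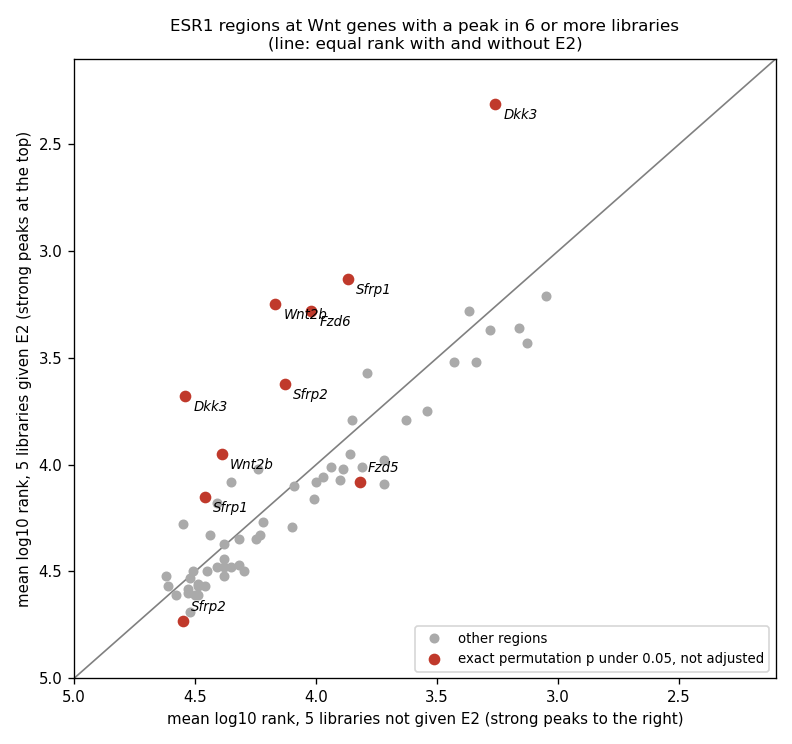
Mean log10 rank of the 64 ESR1 regions at the Wnt genes seen in 6 or more libraries, in the 5 libraries given E2 (vertical) against the 5 not given E2 (horizontal), without E2 replicate 1 and fulvestrant replicate 2 and with the list length in place of a missing rank. Red points had an exact permutation p under 0.05 before adjustment. The Dkk3 element is the strongest region with E2, at 2.31 against 3.26 without E2, and most other regions lie near the line of equal rank.

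Other genes of the pathway were taken from a list of 50 that included Wnt processing, R-spondins and their receptors, non-canonical receptors, and cytoplasmic and nuclear components. Of these, 29 had a peak in all 10 libraries other than those that stood apart and 4 in none, whereas 47.8% of all protein-coding genes had one in all 10. Of all protein-coding genes 10.7% had a peak in no library, and 14.7% had peaks only in the libraries that stood apart. By the rank of the strongest peak over 12 libraries, 4 of 48 tested were stronger with E2 and 6 weaker, against the shares of 2.66% and 11.4% given above. The stronger ones were Ror2 (a receptor for Wnt5a), Frzb (a secreted Frizzled-related protein), Lgr6 (an R-spondin receptor) and Prickle2 (a planar cell polarity protein). The weaker ones were Rspo3, Znrf3, Dvl3, Ctnnb1, Bcl9l and Pygo2, with Ctnnb1 encoding β-catenin.

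Lgr6 had peaks about as strong as the Dkk3 element in the libraries given E2 other than E2 replicate 1. In every vehicle library Lgr6 ranked behind that element. Its strongest peak ranked 8753, 22447 and 6412 with vehicle, 48900, 257 and 287 after E2, 155, 109 and 150 with E2 plus fulvestrant, and 2582, 14473 and 1819 with fulvestrant alone. Ror2 ranked 2063, 4303 and 3468 with vehicle, 1115, 363 and 630 after E2, 512, 290 and 462 with E2 plus fulvestrant, and 2845, 2193 and 3230 with fulvestrant alone, so the 6 libraries given E2, E2 replicate 1 included, all ranked ahead of the 6 others. Axin2, a feedback target of canonical signaling, had 0 to 3 peaks per library.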

How the data were processed

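Peak lists of 12 ESR1 ChIP-Seq libraries were analysed. For these files the authors had, by the methods of the study, adapter-trimmed the reads (Trimmomatic), mapped them to mm10 (Bowtie2), discarded duplicates (Picard) and run MACS2 as peak caller. Whether blacklisted regions had been removed before deposit was not stated. For every peak the deposited lists gave a fold enrichment over local background, which is a ratio, together with −log10 values of p and q, a score that was not used, and a summit offset. The lists held no read counts, so the authors' DESeq2 model and their removal of batch effects with limma could not be repeated, and a depth in reads is unknown.

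All deposited peaks were kept and ranked within their library by −log10 p. Peaks per gene and log10 rank of the strongest peak were tested for every protein-coding gene with a peak by two-sided exact permutation tests over libraries with Benjamini-Hochberg adjustment over all genes tested. The smallest p was 0.1 for 3 against 3, 0.00216 for 6 against 6 and 0.00794 for 5 against 5. Region presence was tested by Fisher's exact test. The region rank test, for regions in at least 6 libraries, and the fits without E2 replicate 1 and fulvestrant replicate 2 were added after seeing the data. Tests were checked on simulated data. Positions were annotated with GENCODE vM21 and sequences read from the GRCm38 reference. Alternatives changed the window, thresholds, list length, scaling, repeat-masked peaks, ranking and replicates.

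The genes, lists and tests were chosen with earlier results of these data known. Genes were named by most peaks, strongest peaks, lowest p and non-overlap of E2 with other treatments, together with Wnt5a, which the study named; regions were named by lowest p, and among regions in at least 6 libraries by an ERE in any library. Other genes and regions were named after their values were seen. Some regions are given by count only, and 1 is not reported here. Analyses used Python, numpy, pandas, SciPy and matplotlib.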

Additional observations from a re-analysis of the deposited data

How the results depend on the processing

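Of 150 alternative values of the counts and shares, with left-out replicates aside, 72 stayed within 1.5 times or within the spread of the value reported. Counts of members are given below as more and fewer peaks with E2 or with the first treatment named, and the cause of each shift was not tested. Percentages in brackets are the shares of all genes, or of all regions, called under the same setting. With peaks of −log10 q of at least 10, E2 against vehicle gave 0 fewer (0.0212%). E2 against E2 plus fulvestrant gave 4 more (10.9%) and 0 fewer (0.0282%). E2 plus fulvestrant against vehicle gave 1 more (3.62%) and 0 fewer (0.176%). All libraries given E2 against the others gave 2 more (3.47%), and region presence 2 more frequent (1.14%). With the 30000 strongest peaks, E2 against vehicle gave 0 more (1.2%) and 5 fewer (4.71%), and E2 against E2 plus fulvestrant 2 fewer (2.59%). E2 plus fulvestrant against vehicle gave 0 more (2.13%) and 4 fewer (2.71%), and all E2 libraries 0 more (0.816%) and 2 fewer (2.45%). With 50 kb windows E2 against vehicle gave 0 fewer (0.2%) and E2 against E2 plus fulvestrant 0 fewer (0.357%). E2 plus fulvestrant against vehicle gave 1 fewer (0.384%) and all E2 libraries 0 more (3.42%). With gene bodies alone E2 against vehicle gave 2 more (6.84%) and 0 fewer (0.524%), and E2 against E2 plus fulvestrant 2 more (3.63%). E2 plus fulvestrant against vehicle gave 1 more (3.19%) and 0 fewer (0.529%). Fulvestrant against vehicle gave 1 more (2.2%) and 1 fewer (0.48%), and all E2 libraries 0 more (2.13%). With any overlap of the window the counts were 1 more (4.3%) for E2 against E2 plus fulvestrant. They were 1 fewer (0.554%) for E2 plus fulvestrant against vehicle and 0 more (2.48%) for all E2 libraries. Per 10000 peaks, E2 against vehicle gave 5 fewer (13.7%) and E2 against E2 plus fulvestrant 3 fewer (8%). E2 plus fulvestrant against vehicle gave 1 more (4.2%) and fulvestrant against vehicle 1 fewer (4.73%). All E2 libraries gave 0 more (1.36%) and 1 fewer (4.95%). With q of at most 0.05, E2 against vehicle gave 1 fewer (0.253%), and E2 against E2 plus fulvestrant 1 more (5.49%) and 0 fewer (0.4%). Fulvestrant against vehicle gave 1 more (3.81%), all E2 libraries 0 more (2.7%) and region presence 0 more frequent (0.191%). Without repeat-masked peaks, all E2 libraries gave 0 more (1.71%), E2 plus fulvestrant against vehicle 1 more (3.82%) and fulvestrant against vehicle 1 fewer (0.63%). By rank E2 then gave 0 weaker (2.18%) against E2 plus fulvestrant and 1 weaker (6.89%) against vehicle. With rank percentiles E2 gave 20 stronger and 0 weaker against vehicle (34.6% and 1.21% of all genes). Against E2 plus fulvestrant it gave 4 stronger (13.2%) and 0 weaker (0.505%), and all E2 libraries gave 0 weaker (1.83%). Ranked by fold enrichment, E2 gave 1 stronger (2.89%) and 3 weaker (15.8%) against vehicle. Against E2 plus fulvestrant it gave 3 stronger (4.22%) and 0 weaker (3.78%). All E2 libraries gave 1 stronger (2.45%) and 4 weaker (12.6%). Summits chained within 200 bp gave 3 regions less frequent with E2 (0.0609%). Promoter peaks within 1 kb were found at 12.7 members with vehicle and 13 with E2 plus fulvestrant on average, against 14.3 and 15.3 within 3 kb. The ERE share was 0% with no mismatch, beside 2288 of all 686823 peaks. Over whole peaks it was 2.42%, and no share of all peaks is given for that setting.

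E2 replicate 1 and fulvestrant replicate 2 were also left out together, an alternative chosen after seeing the data. All E2 libraries then gave 2 more (5.52%) and E2 against E2 plus fulvestrant 2 fewer (1.72%). Fulvestrant against vehicle gave 1 more (5.15%) and 1 fewer (2.43%). By rank E2 gave 2 weaker (8.89%) against E2 plus fulvestrant and 2 stronger (8.73%) against vehicle. The rank of regions gave 8 stronger (11.6%) and 2 weaker (6.56%). Leaving out 1 library at a time, the lowest and highest counts of more and fewer were 4 to 7 and 2 to 3 for E2 against vehicle, 0 to 4 and 1 to 3 for E2 against E2 plus fulvestrant, 2 to 7 and 2 to 3 for E2 plus fulvestrant against vehicle, 0 to 4 and 0 to 1 for fulvestrant against vehicle, and 0 to 4 and 0 to 1 for all E2 libraries. The highest of these, 7 more, stood against between 12.8% and 18.6% of all genes. By rank, weaker and stronger counts were 5 to 8 and 0 to 2 for E2 against vehicle, 1 to 8 and 1 to 4 for E2 against E2 plus fulvestrant, and 2 to 13 and 1 to 3 for all E2 libraries. The count of 13 weaker came without E2 replicate 1, against 20.7% of all genes. Regions by rank gave 1 to 9 stronger and 0 to 5 weaker, with 9 stronger and 5 weaker without E2 replicate 1 alone. Shares of all regions were not computed for these settings, so these region counts are not read as a change at the Wnt genes.

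The labels do not say whether replicate numbers pair the libraries, and same-numbered libraries were not visibly more alike. Deviations of same-numbered libraries correlated between -0.46 and 0.34, with 3 of 18 pairs over 0.1, and 3 of 12 libraries had their highest correlation with a library of the same number. Differently numbered libraries correlated between -0.42 and 0.52, with 9 of 36 pairs over 0.1. With the replicate block, E2 against E2 plus fulvestrant gave 3 more (9.49%) and 2 fewer (2.61%), and fulvestrant against vehicle 3 more (6.63%) and 2 fewer (1.46%). By rank E2 gave 3 stronger (7.38%) and 8 weaker (22.5%) against vehicle. Against E2 plus fulvestrant it gave 3 stronger (14.8%) and 6 weaker (17.5%). With all E2 libraries the block left Wnt2b at 2.33 (exact permutation p = 0.037).

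Single genes changed sign in 3 of 88 alternatives, and none of these was called: Wnt5a at -0.0299 peaks per 10000 and at -0.32 by rank percentile, and Dkk3 at 0.26 by rank percentile. Of 13 calls lost, 8 were of the Wnt2b peak number, and the others were by rank: Fzd7 and Sfrp5 by percentile, Sfrp1 and Sfrp5 by fold enrichment (-0.30 and 0.20), and Fzd7 without the libraries that stood apart. The 5 calls gained were all without those libraries: Wnt2 and Wnt5b by peaks, and Fzd5, Sfrp2 and Dkk3 by rank. Peak lists carry no read depth, so a missing peak may be a site below the threshold of that library.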
